A study of Mus musculus with 18 samples.

Results

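Solute carriers are membrane proteins that move amino acids, sugars, ions, metals, vitamins and metabolites across the plasma membrane and the membranes of organelles. Described here are 166 solute carrier genes expressed in mouse macrophages that were differentiated in a dish out of bone marrow cells. They are the genes whose GENCODE M21 symbol begins with Slc and a digit and whose read count, summed over all 18 libraries, was 500 or more, leaving out 13 carriers (Slc2a1, Slc7a1, Slc7a2, Slc7a11, Slc11a1, Slc11a2, Slc16a1, Slc16a3, Slc30a1, Slc39a8, Slc39a14, Slc40a1 and Slc48a1). The files listed 372 Slc genes among 22598 genes, and 193 of them fell under the threshold, 117 with 0 counts in every library. Slc7a4 with 526 counts and Slc25a40 with 540 counts were just inside, and Slc3a1 with 487 counts and Slc52a3 with 494 counts just outside. Since summed counts chose the members, their levels are a description, and a carrier that was high in 1 group may have passed through that group. Over 50% of the sum of the 6 group means came from 1 group in 7 members: Slc7a8, Slc39a4, Slc25a33, Slc22a4 and Slc4a11 from IFNg+TNF, and Slc5a3 and Slc6a12 from the control.

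The cells were labelled wild type and were sampled at 18 h in 6 groups of 3 libraries. The groups were interferon gamma (IFNg) with lipopolysaccharide (LPS), IFNg with tumour necrosis factor (TNF), IFNg with interleukin-1 beta (IL1b), IFNg with hypoxia, IFNg alone, and an untreated control. No addition was made without IFNg, so "with TNF" and the like below set IFNg plus that addition against IFNg alone, and the 4 additions share the same 3 IFNg libraries. The labels give neither doses nor the age or sex of the animals, nor do they say what sets the replicates of a group apart. The p-values therefore reflect how far these 3 libraries per group spread, which may be technical.

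Macrophages use these carriers in several known ways. Amino acid exchangers and their shared heavy chain feed protein synthesis and redox metabolism, lysosomal exporters release the products of digested cargo and bacterial cell walls, and mitochondrial carriers pass metabolites between the cytosol and the Krebs cycle. Copper and zinc carriers set the metal supply of the cell and of the phagosome, and proton, sodium and bicarbonate exchangers set the pH of the cytosol and of endosomes.

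Total counts ran from 12270565 to 20952799 per library, and the members took 0.917 to 1.18% of them. Levels are CPM, counts scaled to library size with edgeR's TMM factors, on which 3 counts in a library equal 0.151 to 0.255 CPM, and a level per library is given in the order of the replicate numbers. A carrier is called changed where edgeR's quasi-likelihood test gave a Benjamini-Hochberg adjusted p under 0.05 over all 11563 genes tested. Fold changes are log2 values with a standard error, positive where the group named first was higher. The standard error was derived here as the size of the log2 fold change over the square root of the test's F statistic. All 166 members passed the filter on low counts. The macrophage markers Csf1r, Adgre1, Cd68, Itgam, Fcgr1, Lyz2 and Mertk summed to between 13000 and 25700 CPM in the 18 libraries. They summed to 13200 to 14900 CPM with IFNg and 20200 to 25700 CPM in the control, with 2 higher and 4 lower. With TNF 2 were higher and 4 lower as well, at 13500 to 14100 CPM. With LPS 2 were higher and 0 lower, at 13000 to 14600 CPM, and with hypoxia 3 higher and 0 lower, at 16500 to 17100 CPM. Markers of neutrophils and their precursors summed to 16.1 to 28.2 CPM with IFNg+LPS, 4.56 to 8.71 CPM with IFNg+TNF and 86.9 to 106 CPM with IFNg, with 6 of 6 called lower with LPS and with TNF. The B cell list summed to 63.3 to 110 CPM with IFNg+LPS, 7.28 to 12.6 CPM with IFNg+TNF and 505 to 579 CPM with IFNg, and both of its tested genes were lower with LPS and with TNF, while Ms4a1 was at 0. With hypoxia the B cell list summed to 250 to 283 CPM, with 1 gene higher and 1 lower. Of the T cell list, Cd3e, Cd3d and Cd3g were at 0 in all libraries, and the fourth gene, Cd247, was called higher with TNF. The list summed to 1.49 to 4.83 CPM with IFNg+TNF against 0.0521 to 0.615 CPM with IFNg. The globin genes Hbb-bt, Hbb-bs and Hba-a1 were at 0 in all libraries. The 3 endothelial markers summed to 41.1 to 79.0 CPM with IFNg+LPS, 51.2 to 89.0 CPM with IFNg+TNF, 38.9 to 48.6 CPM with IFNg and 13.1 to 16.3 CPM in the control. For them, 1 gene was higher and 1 lower with TNF and with LPS, 1 lower with hypoxia and 1 higher with IFNg against the control. The dendritic cell list summed to 10.5 to 14.1 CPM with IFNg+LPS, 32.7 to 48.0 CPM with IFNg+TNF, 5.99 to 8.48 CPM with IFNg and 3.08 to 4.72 CPM in the control. The mast cell and fibroblast lists stayed under 8 CPM in every library. The part of such cells in the results below was not tested.

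Per kilobase of the deposited gene width, which is the coding length for nearly all members (94.6% of widths were multiples of 3), the mean over the 6 groups ran from 0.687 to 442 CPM per kb with a median of 20.3, and 17 members reached 100. The most abundant were the taurine carrier Slc6a6 at 442 CPM per kb, the amino acid heavy chain Slc3a2 at 357, the lysosomal peptide carrier Slc15a3 at 307, the copper importer Slc31a1 at 304, the hexose carrier Slc2a6 at 271 and the mitochondrial phosphate carrier Slc25a3 at 257. At the other end were the proton exchanger Slc9a5 at 0.687 CPM per kb, Slc7a4 at 0.921 and Slc22a15 at 1.20. In bulk libraries fewer cells carrying an mRNA and less of it per cell cannot be told apart.

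The shares of all genes, here and below, are not matched to the members for counts. Members needed 500 summed counts, while the genes tested only had to pass the low-count filter. How far this sets the shares of members apart was not tested. Of the 108 members with a summed count of 5000 or more, 75 changed with TNF, 38 with LPS, 1 with IL1b and 40 with IFNg against the control. The shares of all genes with such counts are not given here, so these counts have no background beside them. In all, 96 of the 166 members changed with TNF, 57.8% against 44.7% of all genes tested. Of the 166, 44 were higher, 26.5% beside 22.1% of all genes, and 52 lower, 31.3% beside 22.6%. With LPS, 46 members changed, 27.7% against 20.3% of all genes. Of the 166, 26 were higher, 15.7% beside 10.2% of all genes, and 20 lower, 12% beside 10.1%. With hypoxia, 45 members changed, 27.1% against 25.2% of all genes, a share near the background. Of the 166, 24 were higher, 14.5% beside 13.5% of all genes, and 21 lower, 12.7% beside 11.8%. With IL1b, 1 member changed, 0.602% against 0.303% of all genes, where 0.268% were higher and 0.0346% lower. With IL1b, 17 members had an unadjusted edgeR p under 0.05. The share of all genes under that cutoff is not given here, so nothing is concluded from this count. IFNg alone against the control changed 50 members, 30.1% against 23.6% of all genes. Of the 166, 33 were higher, 19.9% beside 13.5% of all genes, and 17 lower, 10.2% beside 10%. IFNg+LPS against IFNg+TNF changed 55 members, 33.1% against 25.3% of all genes. Of the 166, 32 were higher, 19.3% beside 12.2% of all genes, and 23 lower, 13.9% beside 13.1%.

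The median log2 fold change of the members was -0.10 with TNF, 0.07 with LPS, -0.08 with hypoxia, 0.02 with IL1b, 0.09 with IFNg against the control and 0.14 with IFNg+LPS against IFNg+TNF. The median of all genes lay between -0.05, with TNF, and 0.02, with IFNg+LPS against IFNg+TNF. The split into higher and lower moved with the scaling. With the library totals behind the authors' RPKM in place of TMM, it was 35 higher and 69 lower with TNF, 23 and 28 with LPS, 13 and 41 with hypoxia, 28 and 28 with IFNg against the control, and 53 and 18 with IFNg+LPS against IFNg+TNF. Of all genes, 14.6% were then higher and 34.5% lower with TNF, 8.32% and 12.5% with LPS, 7.68% and 22.2% with hypoxia, 10.4% and 15.5% with IFNg against the control, and 22.7% and 7.65% with IFNg+LPS against IFNg+TNF. That scaling moved the median of all genes by -0.32 with TNF, -0.08 with LPS, -0.25 with hypoxia, -0.15 with IFNg against the control and 0.24 with IFNg+LPS against IFNg+TNF. Without the first IFNg+hypoxia library, the lower calls with hypoxia numbered 13 in place of 21. Of the 166 members, 47 were called in none of the 5 comparisons that involve IFNg alone, 49 in 1, 35 in 2, 22 in 3, 12 in 4 and 1, Slc6a19, in 5. Called in none were 28.3% of members and 41.6% of all genes, and the shares were 29.5% and 24.2% for 1 comparison, 21.1% and 17.5% for 2, and 13.3% and 11.8% for 3. The shares were 7.23% and 4.7% for 4 comparisons and 0.602% and 0.156% for 5. The percentages of all genes called in each comparison are also the background for the class counts below, which rest on few genes each and carry no test.

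**Figure D1:**
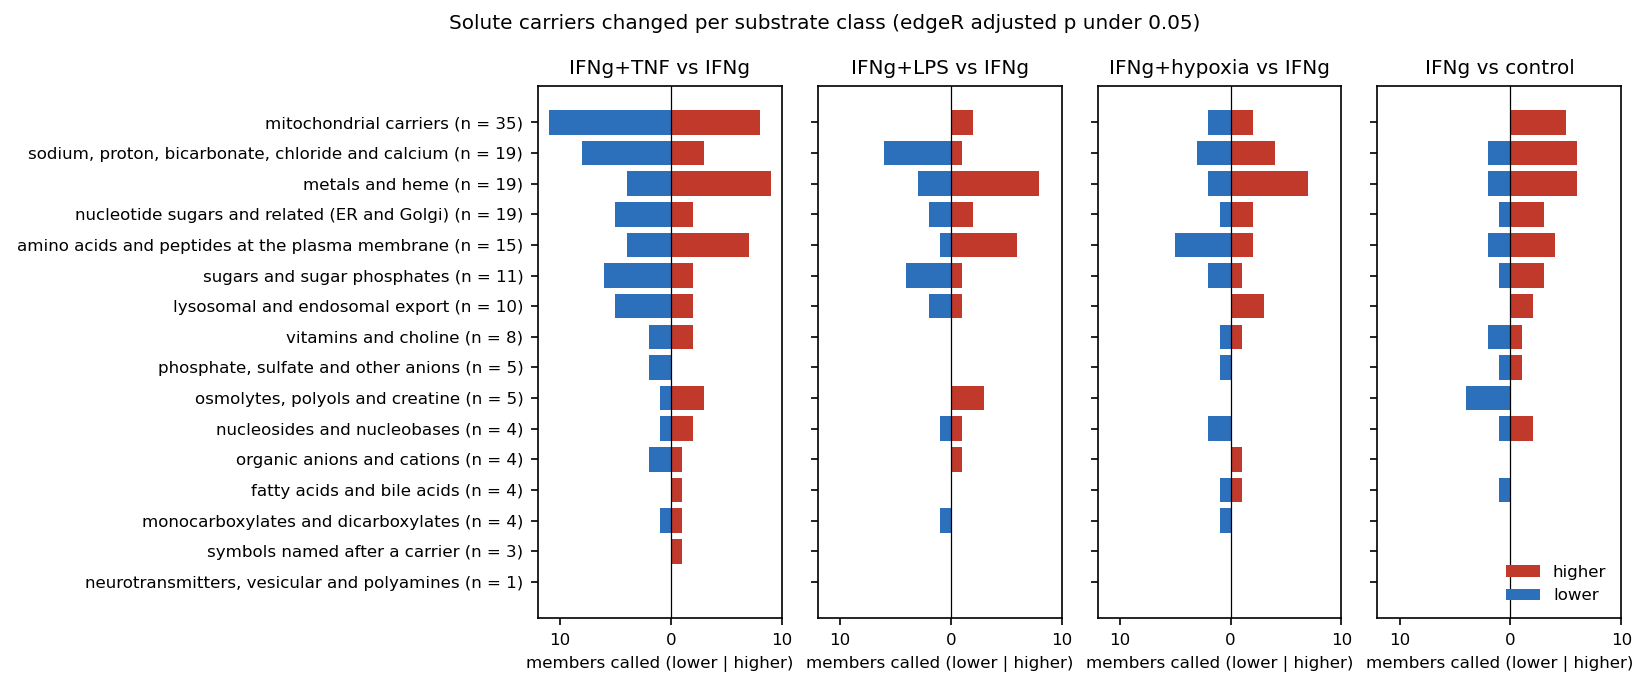
Number of members called higher (red, to the right) and lower (blue, to the left) in each of 16 substrate classes, with class sizes in brackets, for TNF, LPS and hypoxia each added to IFNg and for IFNg against the control. With TNF the 35 mitochondrial carriers had 8 higher and 11 lower, and with LPS 2 higher and 0 lower.

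**Figure D2:**
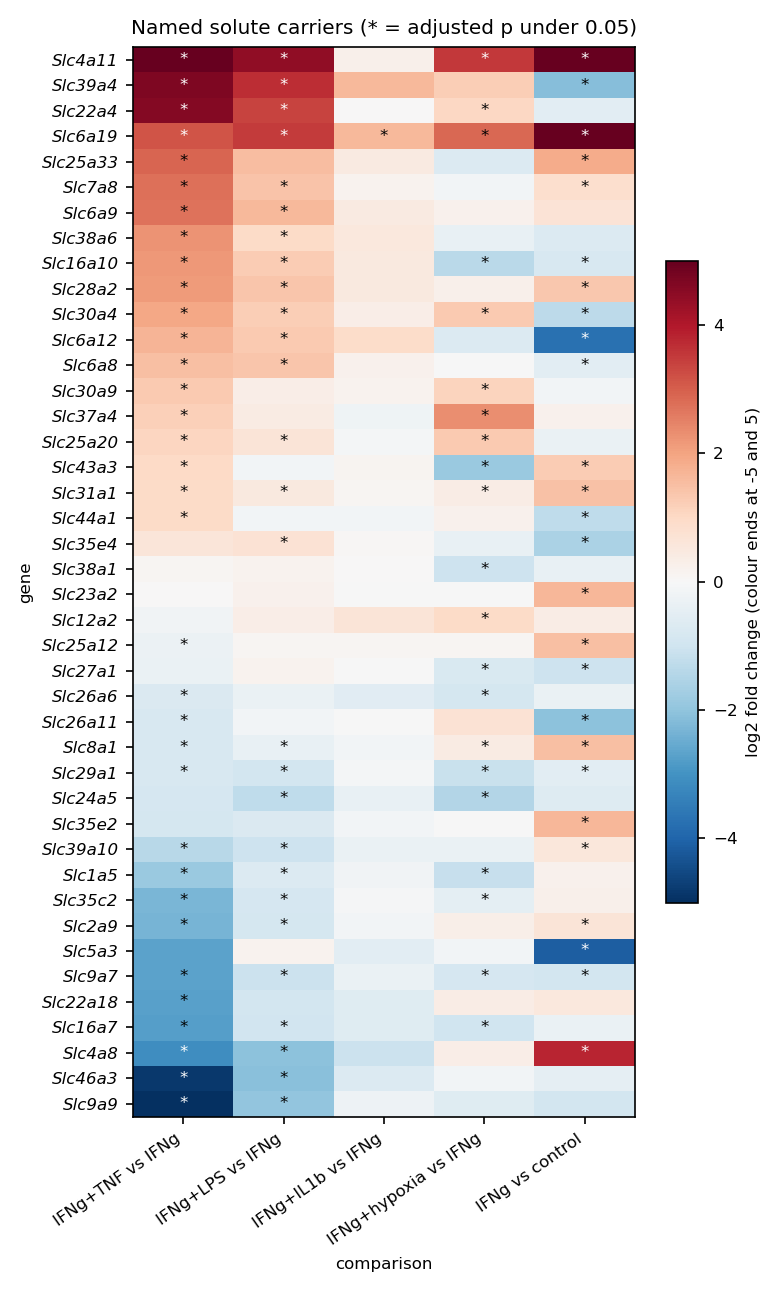
Log2 fold changes of the carriers picked by rank of fold change in each comparison, ordered by their change with TNF, with asterisks for an edgeR adjusted p under 0.05 and colours ending at -5 and 5. Slc4a11, at the top, was at 5.89 ± 0.32 with TNF and 3.55 ± 0.30 with hypoxia, and Slc9a9, at the bottom, at -5.41 ± 0.49 with TNF.

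Among the 15 carriers of amino acids and peptides at the plasma membrane, 7 were higher and 4 lower with TNF, 6 higher and 1 lower with LPS, 2 higher and 5 lower with hypoxia, and 4 higher and 2 lower with IFNg against the control. Slc3a2 (ENSMUSG00000010095, chromosome 19, 8706882 to 8723369, GRCm38) encodes the heavy chain that brings the exchangers Slc7a5, Slc7a6, Slc7a7 and Slc7a8 to the cell surface. It had 702, 768 and 791 CPM with IFNg+LPS, 1229, 1491 and 1448 CPM with IFNg+TNF and 380.2, 431 and 427 CPM with IFNg+IL1b. It had 522, 532 and 553 CPM with IFNg+hypoxia, 328, 373 and 370.1 CPM with IFNg and 187, 185 and 194 CPM in the control. The IFNg+TNF libraries were the highest of all and the control libraries the lowest, and the IFNg+LPS and IFNg+hypoxia libraries lay above every IFNg library. Its log2 fold change was 1.96 ± 0.10 with TNF (adjusted p = 1.99e-14), 1.08 ± 0.10 with LPS (adjusted p = 8.29e-09), 0.59 ± 0.10 with hypoxia (adjusted p = 8.26e-05) and 0.92 ± 0.10 with IFNg against the control (adjusted p = 6.5e-08).

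Of the 4 light chains, Slc7a8 (chromosome 14, 54722209 to 54781946), an exchanger of neutral amino acids, was far more abundant than the others at 159.8 CPM per kb, against 15.97 for Slc7a7, 8.26 for Slc7a6 and 1.82 for Slc7a5. Slc7a8 had 278, 353 and 315 CPM with IFNg+LPS, 715, 905 and 763 CPM with IFNg+TNF and 110, 146 and 138 CPM with IFNg+IL1b. It had 107, 104 and 109 CPM with IFNg+hypoxia, 111, 141 and 98.7 CPM with IFNg and 66.9, 64.5 and 65.8 CPM in the control. Every IFNg+TNF library was above 700 CPM and every IFNg+LPS library above the IFNg libraries, while the hypoxia and IL1b libraries overlapped them. The log2 fold change was 2.76 ± 0.14 with TNF (adjusted p = 5.93e-15), 1.43 ± 0.13 with LPS (adjusted p = 5.69e-09) and 0.83 ± 0.13 with IFNg against the control (adjusted p = 2e-05). Slc7a7, an exchanger of cationic for neutral amino acids, moved the other way with TNF, at 11.3, 15.2 and 3.92 CPM with IFNg+TNF against 34.8, 31.1 and 35.4 CPM with IFNg (-1.72 ± 0.28, adjusted p = 1.62e-05). Slc7a5, the leucine exchanger, was low throughout and had 0.464, 1.19 and 0.386 CPM with IFNg+hypoxia against 5.89, 3.47 and 4.44 CPM with IFNg (-2.76 ± 0.70, adjusted p = 0.00442). Slc7a6 with hypoxia was at -0.84 ± 0.28 (adjusted p = 0.0293), a call lost without the second or the third library of either group, with adjusted p between 0.0572 and 0.134.

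Slc6a19 (ENSMUSG00000021565, chromosome 13, 73679745 to 73704865) encodes a sodium-driven importer of neutral amino acids that is best known from gut and kidney epithelium. The 300 bases around its RefSeq start (GRCm38.p6, chr13:73692587-73692886, minus strand; 250 bases before the start and 50 after) are shown because Slc6a19 was called in all 5 comparisons that involve IFNg alone. That start lies 12229 bases from the GENCODE M21 gene start, and the deposited counts cover coding exons, so they do not tell which start was used.
Slc6a19: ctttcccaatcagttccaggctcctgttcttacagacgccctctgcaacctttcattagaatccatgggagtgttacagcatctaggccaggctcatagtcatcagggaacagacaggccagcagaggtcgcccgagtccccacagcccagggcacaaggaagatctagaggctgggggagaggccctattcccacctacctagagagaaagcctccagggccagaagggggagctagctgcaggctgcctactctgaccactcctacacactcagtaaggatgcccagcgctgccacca
Slc6a19 had 105, 106 and 88.3 CPM with IFNg+LPS, 77.97, 89.9 and 66.6 CPM with IFNg+TNF and 25.3, 23.7 and 32.95 CPM with IFNg+IL1b. It had 64.8, 52.02 and 75.3 CPM with IFNg+hypoxia, 8.23, 7.48 and 10.9 CPM with IFNg and 0.555, 0 and 0 CPM in the control. No 2 of the groups that were compared overlapped apart from IFNg+LPS and IFNg+TNF. All 11 counts in the control came from its first library. Its log2 fold changes were 5.37 ± 0.46 with IFNg against the control (adjusted p = 2.95e-09), and on top of IFNg 3.50 ± 0.29 with LPS (adjusted p = 4.44e-09), 3.14 ± 0.28 with TNF (adjusted p = 4.01e-09) and 2.86 ± 0.28 with hypoxia (adjusted p = 7.69e-08). With IL1b it was 1.63 ± 0.28 (adjusted p = 0.00576), the single member called there, and the call was lost without the first or the second IFNg library or the third IFNg+IL1b library, with adjusted p between 0.0507 and 0.0653.

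Slc16a10 (chromosome 10, 40033532 to 40142258), a carrier of aromatic amino acids and thyroid hormone, moved in both directions. It had 102, 142 and 106 CPM with IFNg+LPS and 227, 198 and 224 CPM with IFNg+TNF. It had 17.6, 20.3 and 19.2 CPM with IFNg+hypoxia, 44.1, 47.9 and 54 CPM with IFNg and 74.3, 77.3 and 106 CPM in the control, with no overlap between IFNg and any of the others. It was higher with TNF (2.15 ± 0.16, adjusted p = 9.08e-12) and LPS (1.26 ± 0.15, adjusted p = 5.47e-07), and lower with hypoxia (-1.36 ± 0.16, adjusted p = 3.16e-07) and with IFNg against the control (-0.82 ± 0.15, adjusted p = 0.000153). The glycine carrier Slc6a9 averaged 10.7 ± 2.43 CPM with IFNg+LPS, 22.5 ± 3.64 CPM with IFNg+TNF and 3.42 ± 0.335 CPM with IFNg (SD, n = 3 each), and was higher with TNF (2.71 ± 0.44, adjusted p = 1.01e-05) and LPS (1.64 ± 0.43, adjusted p = 0.00584). The glutamine importer Slc1a5 fell to 8.22, 10.2 and 7.06 CPM with IFNg+TNF and 11.6, 15.9 and 13.7 CPM with IFNg+hypoxia, against 35.02, 28.4 and 29.2 CPM with IFNg (-1.86 ± 0.21, adjusted p = 4.97e-08, and -1.17 ± 0.21, adjusted p = 0.000114). The glutamine and alanine carriers Slc38a1 and Slc38a2 lie 44479 bases apart on chromosome 15. Slc38a1 was lower with hypoxia (-1.05 ± 0.22, adjusted p = 0.000891), and Slc38a2 was lower with IFNg against the control, at 93.3, 113 and 90.1 against 136, 178 and 148 CPM (-0.64 ± 0.14, adjusted p = 0.000935). Slc38a6, of the same family, had 14.9, 14.9 and 14.9 CPM with IFNg+LPS, 42.4, 36.1 and 28.8 CPM with IFNg+TNF and 9.59, 5.47 and 7.66 CPM with IFNg, and was higher with TNF (2.24 ± 0.27, adjusted p = 8.6e-08). Its call with LPS (0.97 ± 0.26, adjusted p = 0.00739) was lost without the second IFNg library (adjusted p = 0.0612).

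Slc7a4, the member nearest the count threshold, had 0 counts in the 3 IFNg+TNF libraries against 86 in the 3 IFNg libraries, which is at least 25.9-fold lower with 3 counts as the floor over the group (adjusted p = 0.000614).

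**Figure D3:**
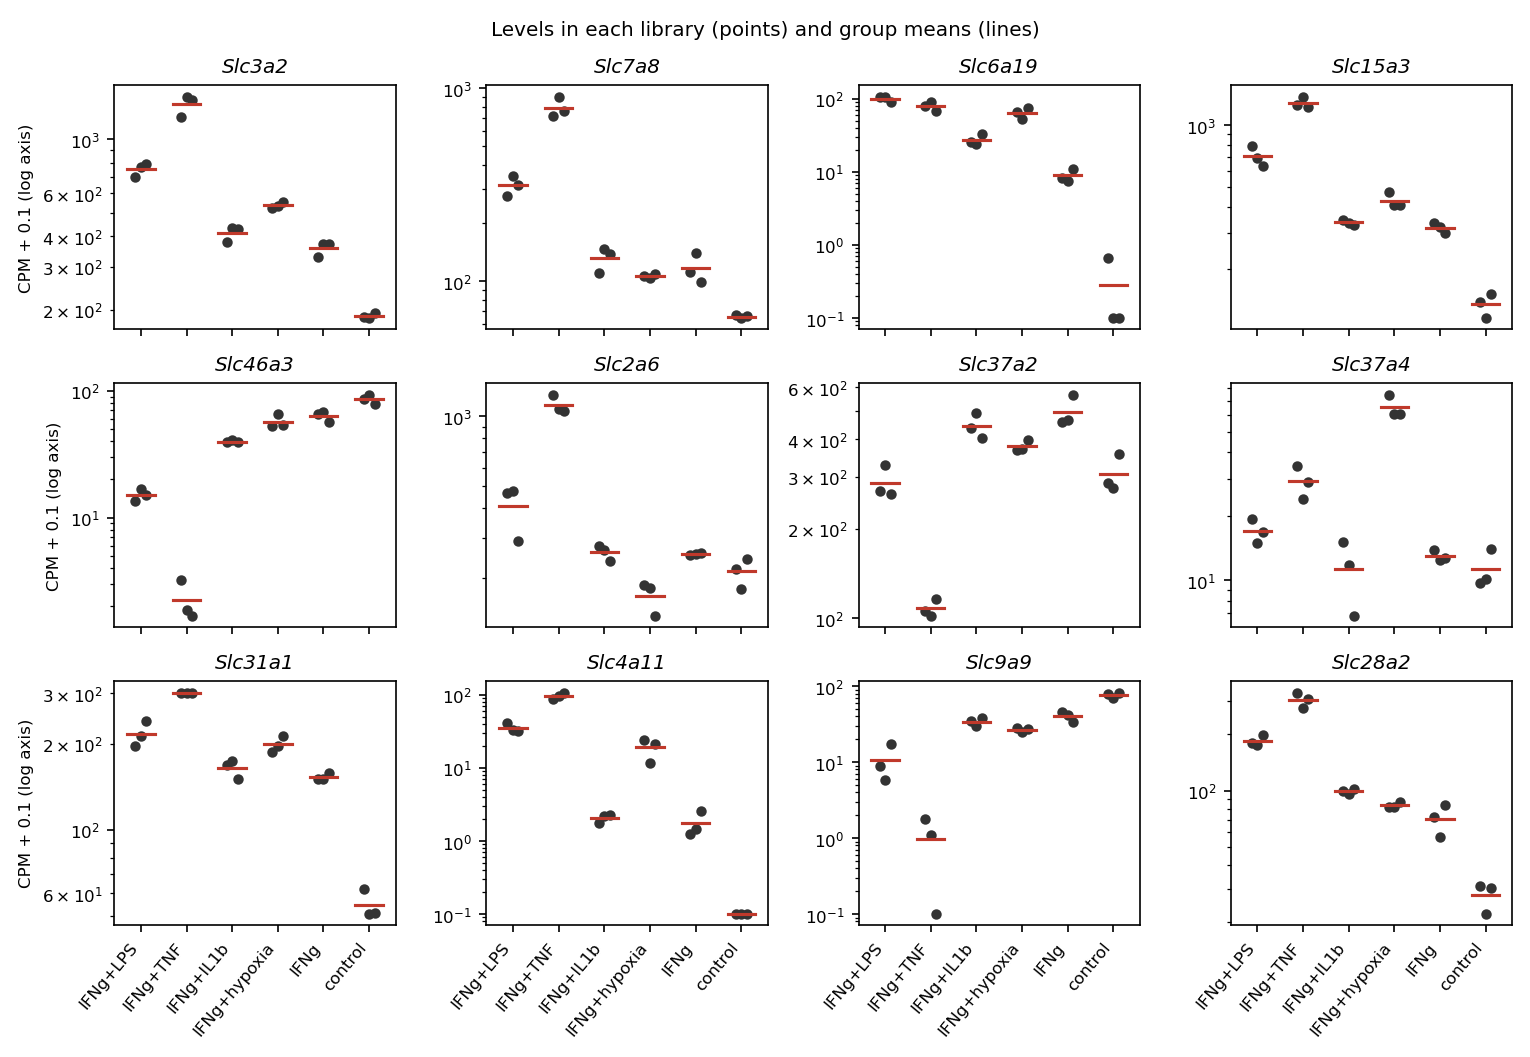
CPM + 0.1 on a log axis for 12 carriers, with a point for each of the 18 libraries and a red line for each group mean. Slc3a2, Slc7a8, Slc2a6 and Slc28a2 were highest in the IFNg+TNF libraries, Slc37a4 in the IFNg+hypoxia libraries, and Slc46a3 and Slc9a9 were lowest with IFNg+TNF.

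Of the 10 lysosomal and endosomal exporters, 2 were higher and 5 lower with TNF and 1 higher and 2 lower with LPS. The counts were 3 higher and 0 lower with hypoxia, and 2 higher and 0 lower with IFNg against the control. Slc15a3 (chromosome 19, 10839727 to 10859362) and Slc15a4 both carry histidine and small peptides, including bacterial muropeptides, out of endolysosomes. Slc15a3 had 789.7, 689 and 634 CPM with IFNg+LPS and 1254, 1375 and 1218 CPM with IFNg+TNF. It had 474, 406 and 406 CPM with IFNg+hypoxia, 335, 319 and 298 CPM with IFNg and 138, 115 and 151 CPM in the control. These groups did not overlap, with IFNg+TNF the highest and the control the lowest. On the log2 scale it was at 2.02 ± 0.12 with TNF (adjusted p = 9.2e-14), 1.15 ± 0.11 with LPS (adjusted p = 1.62e-08) and 1.24 ± 0.12 with IFNg against the control (adjusted p = 1.97e-09). With hypoxia it was 0.43 ± 0.11 (adjusted p = 0.00502), which the RPKM totals changed to 0.19 (adjusted p = 0.219). Slc15a4 moved against its paralog with TNF, at 50.5, 49.03 and 42.9 CPM with IFNg+TNF and 86.3, 96.2 and 126 CPM with IFNg (-1.12 ± 0.16, adjusted p = 1.95e-06).

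Slc46a3 (chromosome 5, 147878437 to 147894815), a lysosomal membrane carrier, had 13.4, 16.7 and 14.8 CPM with IFNg+LPS, 3.11, 1.77 and 1.57 CPM with IFNg+TNF and 39.3, 40.4 and 39.2 CPM with IFNg+IL1b. It had 52.7, 65.3 and 53.2 CPM with IFNg+hypoxia, 65.2, 67.7 and 56.7 CPM with IFNg and 86.01, 93.2 and 78.5 CPM in the control. The IFNg+TNF libraries were lowest, the IFNg+LPS libraries lay between them and the rest, and the IFNg+hypoxia libraries overlapped the IFNg libraries. The log2 fold change was -4.84 ± 0.22 with TNF (adjusted p = 5.43e-16) and -2.08 ± 0.18 with LPS (adjusted p = 1.48e-09). The sialic acid exporter Slc17a5 averaged 32.3 ± 2.49 CPM with IFNg+TNF and 60.8 ± 6.71 CPM with IFNg (-0.91 ± 0.14, adjusted p = 7.47e-06). The lysosomal nucleoside exporter Slc29a3 was higher with hypoxia, at 160.1, 157 and 152 CPM against 77.9, 105 and 103 CPM with IFNg (0.71 ± 0.16, adjusted p = 0.00127), and with IFNg against the control (0.64 ± 0.16, adjusted p = 0.00319). With TNF it was called lower. That call was lost without the first or the third IFNg+TNF or the second or the third IFNg library (adjusted p between 0.0667 and 0.0834). Slc36a4, an amino acid carrier of the same class, was also higher with hypoxia, at 43.9 ± 6.36 CPM against 25.2 ± 3.29 CPM with IFNg (0.80 ± 0.17, adjusted p = 0.000757).

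Of the 11 sugar and sugar phosphate carriers, 2 were higher and 6 lower with TNF and 1 higher and 4 lower with LPS. The counts were 1 higher and 2 lower with hypoxia, and 3 higher and 1 lower with IFNg against the control. Slc2a6 (chromosome 2, 27021363 to 27027998), a hexose carrier of lysosomal membranes, had 468, 477 and 289 CPM with IFNg+LPS and 1236, 1069 and 1047 CPM with IFNg+TNF. It had 187, 182 and 138 CPM with IFNg+hypoxia, 253, 254 and 258 CPM with IFNg and 220.4, 181 and 243 CPM in the control. All IFNg+TNF libraries exceeded 1000 CPM, the third IFNg+LPS library lay close to the IFNg libraries, and the IFNg+hypoxia libraries lay below them. Its log2 fold changes were 2.13 ± 0.16 with TNF (adjusted p = 2.44e-11), 0.69 ± 0.15 with LPS (adjusted p = 0.00144) and -0.60 ± 0.15 with hypoxia (adjusted p = 0.0049). Slc37a2 (chromosome 9, 37227585 to 37255738), a sugar phosphate exchanger of the endoplasmic reticulum, had 268, 328 and 262 CPM with IFNg+LPS and 105, 101 and 116 CPM with IFNg+TNF. It had 457, 467 and 567 CPM with IFNg and 284, 274 and 358 CPM in the control. Of these groups IFNg+TNF was lowest and IFNg highest, at -2.21 ± 0.13 with TNF (adjusted p = 1.02e-13), -0.80 ± 0.12 with LPS (adjusted p = 1.79e-05) and 0.70 ± 0.12 with IFNg against the control (adjusted p = 6.5e-05).

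Slc37a4 (chromosome 9, 44396852 to 44402968) brings glucose 6-phosphate into the endoplasmic reticulum, where it is split into glucose and phosphate, and its loss in humans impairs neutrophils and glycogen breakdown. Its promoter window (RefSeq, GRCm38.p6, chr9:44396696-44396995, plus strand) is shown because its rise with hypoxia was, after those of Slc4a11 and Slc6a19, the largest that was called.
Slc37a4: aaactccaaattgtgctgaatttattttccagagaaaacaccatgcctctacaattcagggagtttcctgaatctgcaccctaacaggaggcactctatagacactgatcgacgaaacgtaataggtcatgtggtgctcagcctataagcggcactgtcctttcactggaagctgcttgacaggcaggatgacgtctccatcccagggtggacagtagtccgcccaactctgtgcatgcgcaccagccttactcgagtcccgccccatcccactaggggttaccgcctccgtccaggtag
Slc37a4 had 19.4, 14.8 and 16.7 CPM with IFNg+LPS, 34.5, 23.99 and 28.8 CPM with IFNg+TNF and 15.1, 11.7 and 6.68 CPM with IFNg+IL1b. It had 74.7, 60.3 and 60.2 CPM with IFNg+hypoxia, 13.7, 12.3 and 12.7 CPM with IFNg and 9.63, 10.02 and 13.98 CPM in the control. The IFNg+hypoxia libraries were above 60 CPM and every other library was under 35 CPM. On the log2 scale it was at 2.34 ± 0.24 with hypoxia (adjusted p = 4.25e-08) and 1.18 ± 0.24 with TNF (adjusted p = 0.000199). The urate carrier Slc2a9 averaged 20.2 ± 2.36 CPM with IFNg+LPS, 7.31 ± 3.15 CPM with IFNg+TNF and 37.03 ± 5.64 CPM with IFNg, and was lower with TNF (-2.33 ± 0.24, adjusted p = 7.59e-09) and LPS (-0.88 ± 0.23, adjusted p = 0.00555). Slc45a4, of the proton-coupled sugar family, averaged 40.3 ± 3.53 CPM with IFNg+LPS, 17.9 ± 3.90 CPM with IFNg+TNF and 61.3 ± 1.92 CPM with IFNg, and was lower with TNF (-1.77 ± 0.17, adjusted p = 1.21e-09) and LPS (-0.60 ± 0.16, adjusted p = 0.00682).

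Of the 5 carriers of osmolytes, polyols and creatine, 0 were higher and 4 lower with IFNg against the control, 3 higher and 1 lower with TNF, 3 higher and 0 lower with LPS, and none was called with hypoxia. Slc6a6 (chromosome 6, 91684053 to 91759066), the taurine importer, had 474, 561 and 460.2 CPM with IFNg+TNF, 811, 769 and 930.5 CPM with IFNg and 1209, 1206 and 1265 CPM in the control. The groups did not overlap, and the level was lower at each step, at -0.55 ± 0.12 with IFNg against the control (adjusted p = 0.000584) and -0.75 ± 0.12 with TNF (adjusted p = 6.16e-06). Slc6a12 (chromosome 6, 121343076 to 121365775), the betaine and GABA importer, had 17.1, 14.7 and 18.9 CPM with IFNg+LPS and 19.4, 26.8 and 20.6 CPM with IFNg+TNF. It had 2.72, 7.32 and 2.78 CPM with IFNg+hypoxia, 7.04, 5.71 and 7.59 CPM with IFNg and 107, 74.2 and 85.05 CPM in the control. All control libraries lay above 70 CPM and all others under 30 CPM. It was at -3.71 ± 0.29 with IFNg against the control (adjusted p = 6.14e-11), 1.72 ± 0.28 with TNF (adjusted p = 9.32e-06) and 1.32 ± 0.27 with LPS (adjusted p = 0.000707). Slc5a3, the myo-inositol importer, had 0.261, 3.002 and 0.615 CPM with IFNg against 21.9, 25.9 and 19.5 CPM in the control (-4.11 ± 1.03, adjusted p = 0.00579), and no addition to IFNg was called. The control held 81.7% of the sum of its 6 group means, and Slc5a3 passed the count threshold only through that group. Its lower level with IFNg, also in the class count, is therefore a description. The creatine importer Slc6a8 had 127, 118 and 101 CPM with IFNg+LPS and 118, 126 and 124 CPM with IFNg+TNF against 41.9, 35.6 and 53.4 CPM with IFNg, at 1.40 ± 0.17 with LPS (adjusted p = 5.59e-07) and 1.49 ± 0.17 with TNF (adjusted p = 4.77e-08). Its lower level with IFNg against the control (-0.53 ± 0.17, adjusted p = 0.0211) lost the call without the first or the second IFNg library or the third control library, with adjusted p between 0.0721 and 0.201. Slc6a13, which carries GABA and lies 5343 bases from Slc6a12 on chromosome 6, averaged 4.44 ± 1.20 CPM with IFNg+LPS, 3.48 ± 1.07 CPM with IFNg+TNF and 0.754 ± 0.605 CPM with IFNg. Its calls with LPS (adjusted p = 0.0135) and TNF (adjusted p = 0.0167) were lost without the second IFNg library (adjusted p = 0.0599 with LPS), and the call with TNF also without the third IFNg+TNF library (adjusted p 0.0527 to 0.0691 over both).

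**Figure D4:**
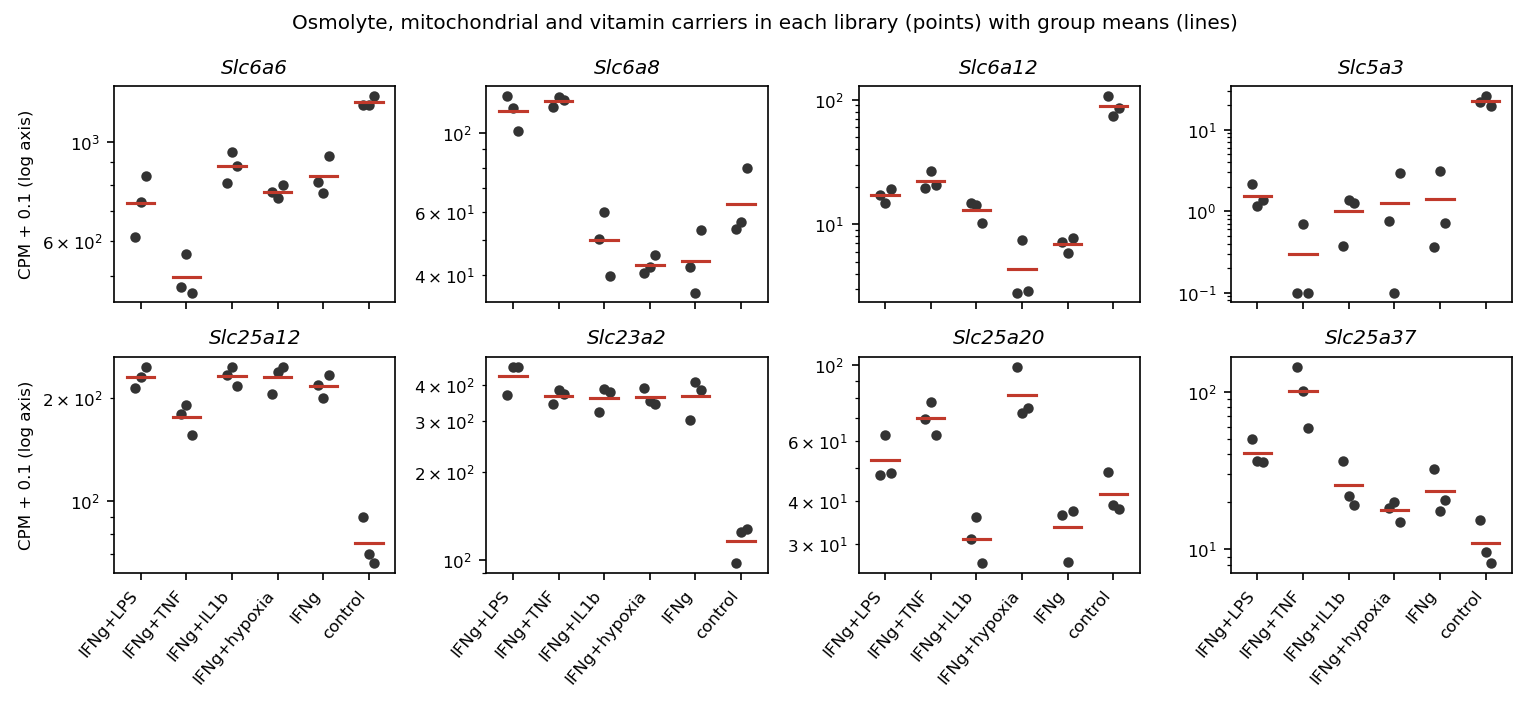
CPM + 0.1 on a log axis for 8 osmolyte, mitochondrial and vitamin carriers, with a point for each library and a red line for each group mean. Slc6a12 and Slc5a3 were highest in the 3 control libraries, and Slc25a12 and Slc23a2 were lowest there.

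The 35 mitochondrial carriers split, with 8 higher and 11 lower with TNF, 2 higher and 0 lower with LPS, 2 higher and 2 lower with hypoxia, and 5 higher and 0 lower with IFNg against the control. In all, 54.3% of them were called with TNF beside 44.7% of all genes, 5.71% with LPS beside 20.3%, 11.4% with hypoxia beside 25.2%, and 14.3% with IFNg against the control beside 23.6%. Of the abundant ones, Slc25a4, the ADP/ATP carrier, averaged 103 ± 19.1 CPM with IFNg+TNF and 175 ± 29.02 CPM with IFNg (-0.76 ± 0.16, adjusted p = 0.000412). Slc25a3, the phosphate carrier, was at -0.52 ± 0.15 with TNF (adjusted p = 0.00814), a call lost without the second IFNg+TNF or the third IFNg library (adjusted p = 0.0703 and 0.0574). Slc25a39, which brings glutathione into mitochondria, was at -0.45 ± 0.11 (adjusted p = 0.00184), and the dicarboxylate carrier Slc25a10 at -1.16 ± 0.19 (adjusted p = 1.22e-05).

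Slc25a12 and Slc25a13 encode the aspartate and glutamate carriers of the malate-aspartate shuttle. Slc25a12 (chromosome 2, 71271063 to 71367749) had 217, 199 and 233 CPM with IFNg against 89.9, 70.2 and 65.8 CPM in the control, and between 156 and 246 CPM in every library that received IFNg. Its log2 fold change was 1.52 ± 0.12 with IFNg against the control (adjusted p = 1.93e-10). With TNF it was also called lower (-0.30 ± 0.12, adjusted p = 0.0441), a call lost with RLE factors (adjusted p = 0.0586) and without the first or the third library of either group (adjusted p between 0.0678 and 0.19). Slc25a13 was not called with IFNg against the control (-0.25 ± 0.17, adjusted p = 0.343) and was lower with TNF (-0.87 ± 0.17, adjusted p = 0.000151). The carnitine and acylcarnitine carrier Slc25a20 (chromosome 9, 108662088 to 108684641), which admits fatty acids for oxidation, had 69.6, 77.9 and 62.5 CPM with IFNg+TNF and 99.1, 72.4 and 74.7 CPM with IFNg+hypoxia, against 36.4, 26.4 and 37.3 CPM with IFNg. It was higher with hypoxia (1.30 ± 0.18, adjusted p = 3.44e-06) and TNF (1.07 ± 0.18, adjusted p = 1.63e-05). The citrate carrier Slc25a1 had 73.3, 69.1 and 78.96 CPM with IFNg+TNF against 35.4, 36.9 and 41.4 CPM with IFNg (0.96 ± 0.14, adjusted p = 2.31e-06).

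The mitochondrial iron importer Slc25a37 had 49.9, 36.4 and 35.7 CPM with IFNg+LPS and 144, 101 and 58.5 CPM with IFNg+TNF. It had 32.1, 17.4 and 20.5 CPM with IFNg and 15.2, 9.47 and 8.05 CPM in the control. The IFNg+TNF libraries spread widely but stayed above all others (2.12 ± 0.32, adjusted p = 1.59e-05). Slc25a28, its paralog, averaged 29.4 ± 1.996 CPM with IFNg+TNF and 18.7 ± 1.24 CPM with IFNg, and its call (adjusted p = 0.0311) was lost without any of 5 of the 6 libraries and with the RPKM totals (0.33, adjusted p = 0.278). The pyrimidine nucleotide carrier Slc25a33 had 25.8, 15.97 and 24.9 CPM with IFNg+TNF against 2.08, 3.35 and 3.42 CPM with IFNg (2.91 ± 0.61, adjusted p = 0.000382). The sodium and calcium exchanger of the inner membrane, Slc8b1, averaged 240.4 ± 31.6 CPM with IFNg+LPS, 278 ± 31 CPM with IFNg+TNF and 145 ± 15.2 CPM with IFNg, and was higher with LPS (0.73 ± 0.12, adjusted p = 5.11e-05) and TNF (0.94 ± 0.12, adjusted p = 3.85e-07). Slc25a35 had the lowest fold change of any member with hypoxia, at 0.199, 0 and 0.309 CPM with IFNg+hypoxia against 3.75, 2.65 and 2.53 CPM with IFNg (-4.05 ± 0.90, adjusted p = 0.0013), which rests on 7 counts in the IFNg+hypoxia libraries and 154 in the IFNg libraries.

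Of the 19 metal carriers, 9 were higher and 4 lower with TNF and 8 higher and 3 lower with LPS. The counts were 7 higher and 2 lower with hypoxia, and 6 higher and 2 lower with IFNg against the control. Slc31a1 (ENSMUSG00000066150, chromosome 4, 62360727 to 62391769) encodes the plasma membrane importer of copper, and Slc31a2 (ENSMUSG00000066152, chromosome 4, 62262562 to 62298411), its paralog in endosomes and lysosomes, lies 62316 bases away. Slc41a2 (chromosome 10, 83230848 to 83337882) is a magnesium carrier. Their promoter windows (RefSeq, GRCm38.p6) are shown because they were the metal carriers called higher with TNF, LPS, hypoxia and IFNg. In other classes Slc3a2, Slc6a19, Slc15a3 and Slc4a11 had the same calls, and the Slc3a2 window, not shown, also held ACGTG. The windows shown were thus picked with the calls known. Capitals mark ACGTG, the core of the hypoxia response element, and TGACNNNGC, the core of the antioxidant response element, on either strand. The windows are chr4:62360451-62360750, plus strand, for Slc31a1, chr4:62286179-62286478, plus strand, for Slc31a2, and chr10:83337768-83338067, minus strand, for Slc41a2, and the Slc31a2 start lies 23867 bases from the GENCODE M21 gene start.
Slc31a1: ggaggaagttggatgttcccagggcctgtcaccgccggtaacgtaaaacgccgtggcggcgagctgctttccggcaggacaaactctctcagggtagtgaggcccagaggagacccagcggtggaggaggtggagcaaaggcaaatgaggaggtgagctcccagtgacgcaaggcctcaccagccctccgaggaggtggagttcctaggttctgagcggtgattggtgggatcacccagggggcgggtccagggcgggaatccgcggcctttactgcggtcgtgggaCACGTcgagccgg
Slc31a2: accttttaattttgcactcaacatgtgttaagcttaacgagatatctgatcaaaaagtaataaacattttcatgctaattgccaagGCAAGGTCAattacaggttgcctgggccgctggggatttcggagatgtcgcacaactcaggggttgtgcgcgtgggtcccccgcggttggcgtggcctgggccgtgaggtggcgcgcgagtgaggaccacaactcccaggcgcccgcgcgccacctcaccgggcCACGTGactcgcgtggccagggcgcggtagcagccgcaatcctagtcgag
Slc41a2: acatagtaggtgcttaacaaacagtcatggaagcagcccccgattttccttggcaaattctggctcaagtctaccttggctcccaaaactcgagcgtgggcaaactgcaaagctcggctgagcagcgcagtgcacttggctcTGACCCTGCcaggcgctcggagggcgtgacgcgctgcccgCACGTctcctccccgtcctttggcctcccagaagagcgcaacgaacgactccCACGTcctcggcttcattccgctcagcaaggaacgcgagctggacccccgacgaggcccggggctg
Counted from the start as position 1, ACGTG began at position 38 in Slc31a1, at 1 in Slc31a2 and at -68 and -16 in Slc41a2, and TGACNNNGC at -164 in Slc31a2 and -108 in Slc41a2. Among 9181 tested genes with a RefSeq promoter window, 25.9% held ACGTG and 14.8% TGACNNNGC. Among the 126 members with a window, 29.4% held ACGTG and 20.6% TGACNNNGC. ACGTG was in 10 of the 21 members higher with hypoxia that had a window, 47.6%, beside 29.7% of all genes higher with hypoxia. Of those 10, Slc25a1, Slc31a1, Slc31a2, Slc35a5 and Slc35f5 lost the hypoxia call with the RPKM totals, and the others kept it. ACGTG was also in 10 of the 27 members higher with IFNg against the control, 37% beside 26.4%. For members higher with TNF it was 31.4% beside 26.6%, and with LPS 30% beside 25.9%. Among members lower with hypoxia, 2 of 12 held it, 16.7% beside 24.1% of all genes lower. With IFNg against the control, 0 of 13 lower members held it, beside 23.9%. For members lower with TNF it was 23.3% beside 24.3%, and with LPS 11.8% beside 21.9%. No test was made. The gamma-activated site TTCNNNGAA and the amino acid response element TTGCATCA were also searched. They were in 6.35% and 1.59% of members, beside 6.88% and 0.632% of the genes with a window. The Slc37a4 and Slc6a19 windows above held none of these motifs. A match is a description of the letters and does not show binding.

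Slc31a1 had 196, 213 and 239.9 CPM with IFNg+LPS, 299.8, 302 and 301 CPM with IFNg+TNF and 168, 174 and 150.5 CPM with IFNg+IL1b. It had 187, 195 and 213 CPM with IFNg+hypoxia, 149.8, 150.5 and 158 CPM with IFNg and 62.1, 50.7 and 51.1 CPM in the control. The 3 control libraries were lowest and the IFNg+TNF libraries highest. The log2 fold change was 1.48 ± 0.11 with IFNg against the control (adjusted p = 4.24e-11), 0.98 ± 0.11 with TNF (adjusted p = 3.86e-08) and 0.50 ± 0.11 with LPS (adjusted p = 0.00129). With hypoxia it was 0.38 ± 0.11 (adjusted p = 0.0123), lost without the third IFNg+hypoxia library (adjusted p = 0.0737) and with the RPKM totals (0.13, adjusted p = 0.413). Slc31a2 had 65.9, 67.7 and 64.3 CPM with IFNg+LPS and 84.7, 79.2 and 61.5 CPM with IFNg+TNF. It had 33.7, 23.4 and 34.7 CPM with IFNg and 21.8, 10.6 and 12.7 CPM in the control, with the lowest values again in the control. It was higher with IFNg against the control (1.02 ± 0.21, adjusted p = 0.00046), with TNF (1.30 ± 0.21, adjusted p = 8.53e-06) and with LPS (1.11 ± 0.20, adjusted p = 0.0002). Its call with hypoxia (0.57 ± 0.20, adjusted p = 0.0401) was lost without any of 5 of the 6 libraries, with adjusted p between 0.0535 and 0.205, and with the RPKM totals (0.33, adjusted p = 0.252).

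Slc41a2 had 116, 109 and 92.7 CPM with IFNg+TNF. It had 88.3, 99.3 and 79.99 CPM with IFNg+hypoxia, 52.95, 43.7 and 61.04 CPM with IFNg and 23.2, 34.96 and 27.5 CPM in the control, with no overlap between IFNg and the others. Its log2 fold change was 1.01 ± 0.16 with TNF (adjusted p = 1.06e-05), 0.76 ± 0.16 with hypoxia (adjusted p = 0.000849) and 0.88 ± 0.17 with IFNg against the control (adjusted p = 0.000163). The call with LPS (0.52 ± 0.16, adjusted p = 0.0224) was lost without the first or the second IFNg library or the second or the third IFNg+LPS library (adjusted p between 0.0585 and 0.14) and with the RPKM totals (0.45, adjusted p = 0.0501).

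Zinc carriers went both ways. Slc39a4 (chromosome 15, 76612383 to 76617384), the importer best known from the gut, had 43.7, 32.4 and 16.9 CPM with IFNg+LPS and 71.3, 59.3 and 51.8 CPM with IFNg+TNF. It had 5.76, 8.09 and 2.78 CPM with IFNg+hypoxia, 4.17, 1.06 and 1.78 CPM with IFNg and 14.4, 4.65 and 12.3 CPM in the control. The IFNg libraries were all under 5 CPM, and every IFNg+TNF and IFNg+LPS library was above 15 CPM. It was at 4.68 ± 0.54 with TNF (adjusted p = 7.88e-07), 3.71 ± 0.52 with LPS (adjusted p = 3.13e-05) and -2.14 ± 0.51 with IFNg against the control (adjusted p = 0.00376). The importer Slc39a10 averaged 33.05 ± 7.59 CPM with IFNg+LPS, 25.4 ± 4.02 CPM with IFNg+TNF and 66.9 ± 10.8 CPM with IFNg, and was lower with LPS (-1.02 ± 0.19, adjusted p = 0.00021) and TNF (-1.40 ± 0.19, adjusted p = 9.26e-07). Slc30a5, which loads zinc into the secretory pathway, had 81.2, 91.6 and 88.4 CPM with IFNg+LPS, 64.8, 57.9 and 61.9 CPM with IFNg+TNF, 99.1, 95.5 and 112 CPM with IFNg+hypoxia and 134, 167 and 141 CPM with IFNg. It was lower with each of these additions, at -1.26 ± 0.13 with TNF (adjusted p = 1.09e-08), -0.76 ± 0.13 with LPS (adjusted p = 8.48e-05) and -0.53 ± 0.13 with hypoxia (adjusted p = 0.00359). With hypoxia the Golgi zinc carrier Slc30a7 (0.76 ± 0.14, adjusted p = 0.000176), the importer Slc39a1 (0.65 ± 0.14, adjusted p = 0.00112) and the mitochondrial zinc carrier Slc30a9 (1.13 ± 0.17, adjusted p = 7.53e-06) were higher. Slc30a9 averaged 84.1 ± 10.9 CPM with IFNg+TNF, 73.7 ± 2.69 CPM with IFNg+hypoxia and 33.6 ± 5.53 CPM with IFNg, and was also higher with TNF (1.32 ± 0.17, adjusted p = 1.93e-07). Slc30a4, which loads zinc into vesicles, had 8.17, 7.74 and 8.22 CPM with IFNg+LPS, 15.1, 10.7 and 14.4 CPM with IFNg+TNF and 6.69, 7.92 and 11.1 CPM with IFNg+hypoxia. It had 1.98, 3.88 and 4.58 CPM with IFNg and 8.73, 10.8 and 5.99 CPM in the control, and the IFNg libraries lay below all of these. It was higher with TNF (1.94 ± 0.36, adjusted p = 6.29e-05). Without the first IFNg library its calls with LPS (1.21 ± 0.35), hypoxia (1.30 ± 0.36) and IFNg against the control (-1.29 ± 0.35) were lost (adjusted p between 0.0634 and 0.106), and that with hypoxia also without the third IFNg+hypoxia library (adjusted p = 0.0548). Slc39a7, which releases zinc out of the endoplasmic reticulum and is abundant at 111 CPM per kb, was higher with IFNg against the control (0.53 ± 0.12, adjusted p = 0.00123).

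Of the 4 carriers of nucleosides and nucleobases, 2 were higher and 1 lower with TNF, 1 higher and 1 lower with LPS, 0 higher and 2 lower with hypoxia, and 2 higher and 1 lower with IFNg against the control. Slc29a2, an equilibrative nucleoside carrier, was called in none of these. Slc28a2 (chromosome 2, 122426477 to 122461137), which concentrates purine nucleosides in the cell, had 180, 174 and 198 CPM with IFNg+LPS and 332, 274 and 308 CPM with IFNg+TNF. It had 71.9, 56.2 and 83.1 CPM with IFNg and 30.9, 21.9 and 30.3 CPM in the control, and these groups did not overlap. It was higher with IFNg against the control (1.34 ± 0.14, adjusted p = 2.01e-08), with TNF (2.12 ± 0.14, adjusted p = 1.57e-12) and with LPS (1.39 ± 0.14, adjusted p = 1.78e-08). Slc29a1, of the same family as Slc29a2, was lower with TNF (-0.82 ± 0.18, adjusted p = 0.000612), LPS (-0.90 ± 0.18, adjusted p = 0.000594) and hypoxia (-1.10 ± 0.19, adjusted p = 5.81e-05), averaging 25.5 ± 4.09 CPM with IFNg+LPS, 27.02 ± 3.29 CPM with IFNg+TNF, 22.2 ± 2.346 CPM with IFNg+hypoxia and 47.7 ± 3.30 CPM with IFNg. The purine nucleobase carrier Slc43a3 had 76.6, 87.7 and 96.3 CPM with IFNg+TNF. It had 11.5, 12.7 and 12.1 CPM with IFNg+hypoxia, 42.6, 49.3 and 38.7 CPM with IFNg and 15.99, 23.7 and 13.98 CPM in the control. It was higher with TNF (0.996 ± 0.19, adjusted p = 0.00012) and with IFNg against the control (1.28 ± 0.20, adjusted p = 1.2e-05), and lower with hypoxia (-1.85 ± 0.20, adjusted p = 1.09e-07).

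Of the 8 vitamin and choline carriers, 1 was higher and 2 lower with IFNg against the control, 2 higher and 2 lower with TNF, none was called with LPS, and 1 was higher and 1 lower with hypoxia. The vitamin C importer Slc23a2 (chromosome 2, 132052496 to 132145108) had 303, 410.1 and 382 CPM with IFNg against 96.96, 125 and 127 CPM in the control (1.65 ± 0.13, adjusted p = 9.52e-11), and between 303 and 462 CPM in every library that received IFNg. No addition to IFNg was called for it, with 0.00 ± 0.13 for TNF and -0.01 ± 0.13 for hypoxia. The choline carrier Slc44a1 had 131, 136 and 149 CPM with IFNg+TNF, 64.6, 67.5 and 84.2 CPM with IFNg and 149.8, 173 and 197 CPM in the control, so that IFNg was below both. It was at -1.27 ± 0.14 with IFNg against the control (adjusted p = 6.83e-08) and 0.94 ± 0.14 with TNF (adjusted p = 3.65e-06). The folate carrier Slc19a1 averaged 3.35 ± 1.19 CPM with IFNg+TNF and 9.73 ± 2.87 CPM with IFNg (-1.53 ± 0.34, adjusted p = 0.000646). Slc44a2, a choline carrier with 81.1 CPM per kb, was higher with TNF (0.42 ± 0.11, adjusted p = 0.00362), which the RPKM totals changed to 0.10 (adjusted p = 0.5).

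Of the 19 carriers of sodium, protons, bicarbonate, chloride and calcium, 3 were higher and 8 lower with TNF and 1 higher and 6 lower with LPS. The counts were 4 higher and 3 lower with hypoxia, and 6 higher and 2 lower with IFNg against the control. Slc4a11 (ENSMUSG00000074796, chromosome 2, 130684113 to 130697519), a proton carrier known for its role in the corneal endothelium, had 41.1, 32.6 and 32.1 CPM with IFNg+LPS, 87.6, 95.8 and 107 CPM with IFNg+TNF and 1.64, 2.11 and 2.18 CPM with IFNg+IL1b. It had 24.3, 11.4 and 21.4 CPM with IFNg+hypoxia, 1.15, 1.35 and 2.46 CPM with IFNg and 0 in all 3 control libraries. Only the IFNg+IL1b and IFNg libraries overlapped. Its log2 fold changes were 5.89 ± 0.32 with TNF (adjusted p = 8.96e-14), 4.43 ± 0.30 with LPS (adjusted p = 6.11e-11) and 3.55 ± 0.30 with hypoxia (adjusted p = 2.24e-09). Against the control, IFNg had 81 counts to 0, at least 28.0-fold higher with 3 counts as the floor over the group (adjusted p = 1e-07).

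Slc9a9 (chromosome 9, 94669909 to 95230445) and Slc9a7 encode sodium-proton exchangers of endosomes and the trans-Golgi network. The Slc9a9 promoter window (RefSeq, GRCm38.p6, chr9:94669642-94669941, plus strand) is shown because Slc9a9 had the largest rise with IFNg+LPS against IFNg+TNF among the members with a group mean of 5 CPM or more, and it held none of the motifs searched.
Slc9a9: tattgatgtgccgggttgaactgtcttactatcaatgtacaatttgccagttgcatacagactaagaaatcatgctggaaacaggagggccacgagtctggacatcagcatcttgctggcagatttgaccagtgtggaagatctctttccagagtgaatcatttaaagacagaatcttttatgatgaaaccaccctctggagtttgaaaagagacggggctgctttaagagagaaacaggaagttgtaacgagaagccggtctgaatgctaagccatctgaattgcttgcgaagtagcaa
Slc9a9 had 8.69, 5.71 and 17 CPM with IFNg+LPS, 1.67, 0.986 and 0 CPM with IFNg+TNF and 34.3, 29.9 and 37.6 CPM with IFNg+IL1b. It had 27.6, 24.9 and 27.2 CPM with IFNg+hypoxia, 46.1, 41.6 and 33.9 CPM with IFNg and 77.6, 68.8 and 82.3 CPM in the control. The IFNg+TNF libraries were under 2 CPM, and the IFNg+LPS libraries lay between these and the IFNg libraries. It was at -5.41 ± 0.49 with TNF (adjusted p = 2.41e-08) and -1.96 ± 0.38 with LPS (adjusted p = 0.00081). Slc9a7 averaged 13.6 ± 4.02 CPM with IFNg+LPS, 4.52 ± 0.954 CPM with IFNg+TNF and 28.7 ± 6.07 CPM with IFNg, at -2.67 ± 0.27 with TNF (adjusted p = 5.24e-09) and -1.07 ± 0.25 with LPS (adjusted p = 0.00222).

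Slc8a1, Slc12a7, Slc12a9 and Slc4a8 are given side by side for IFNg against the control and for TNF, 2 comparisons that share the IFNg libraries. The sodium and calcium exchanger Slc8a1 had 87.2, 88.2 and 95.5 CPM with IFNg+TNF, 142, 160.5 and 176 CPM with IFNg and 51.2, 58.99 and 59.1 CPM in the control, at 1.498 ± 0.13 with IFNg against the control (adjusted p = 4.84e-10) and -0.82 ± 0.13 with TNF (adjusted p = 6.04e-06). The potassium and chloride cotransporter Slc12a7, whose gene lies 28229 bases from Slc6a19, had 59.5, 57.1 and 55.7 CPM with IFNg+TNF, 115, 130.3 and 140 CPM with IFNg and 68.7, 83.1 and 84.9 CPM in the control, at 0.70 ± 0.12 with IFNg against the control (adjusted p = 6e-05) and -1.16 ± 0.12 with TNF (adjusted p = 1.25e-08). Slc12a9, of the same family, was at 1.02 ± 0.19 (adjusted p = 0.000287) and -1.51 ± 0.20 (adjusted p = 1.17e-06) in the same comparisons. The sodium-driven bicarbonate carrier Slc4a8 had 2.90, 4.72 and 0.976 CPM with IFNg+LPS and 0.945, 1.91 and 1.33 CPM with IFNg+TNF. It had 17.7, 9.65 and 8.27 CPM with IFNg and 1.51, 0.672 and 0.303 CPM in the control. It was at 3.80 ± 0.55 with IFNg against the control (adjusted p = 4.74e-06), -3.09 ± 0.53 with TNF (adjusted p = 2.5e-05) and -2.04 ± 0.50 with LPS (adjusted p = 0.00341). The sodium, potassium and chloride cotransporter Slc12a2 had 17.6, 15.2 and 18.2 CPM with IFNg+hypoxia against 5.79, 12.9 and 7.25 CPM with IFNg (0.97 ± 0.30, adjusted p = 0.0165), a call lost without the first or the third IFNg or the third IFNg+hypoxia library (adjusted p between 0.0562 and 0.115) and with the RPKM totals (0.72, adjusted p = 0.0681). Slc24a5, a potassium-dependent sodium and calcium exchanger best known from pigment cells, averaged 3.10 ± 0.771 CPM with IFNg+LPS, 2.71 ± 0.861 CPM with IFNg+hypoxia and 7.45 ± 0.940 CPM with IFNg. Its lower level with hypoxia (-1.46 ± 0.41, adjusted p = 0.00849) lost the call without the first IFNg+hypoxia library (adjusted p = 0.0528), and that with LPS (-1.26 ± 0.40, adjusted p = 0.0239) without the first or the second IFNg or the second or the third IFNg+LPS library (adjusted p between 0.0533 and 0.0956).

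Of the 19 nucleotide sugar and related carriers of the endoplasmic reticulum and Golgi, 2 were higher and 5 lower with TNF and 2 higher and 2 lower with LPS. The counts were 2 higher and 1 lower with hypoxia, and 3 higher and 1 lower with IFNg against the control. Slc35c2, a Golgi carrier linked to fucosylation, had 44.8, 39.8 and 53.3 CPM with IFNg+LPS, 15.8, 18.5 and 16.9 CPM with IFNg+TNF and 78.02, 73.8 and 97.8 CPM with IFNg, and the groups did not overlap. It was lower with TNF (-2.28 ± 0.17, adjusted p = 1.12e-11) and LPS (-0.86 ± 0.16, adjusted p = 0.000205). Slc35b1, which exchanges ATP and ADP across the endoplasmic reticulum membrane, had 87.7, 81.8 and 90.4 CPM with IFNg against 34.6, 43.3 and 41.8 CPM in the control (1.12 ± 0.15, adjusted p = 2.43e-06). Slc35b2, which supplies the Golgi with activated sulfate, was lower with TNF (-1.06 ± 0.15, adjusted p = 1.06e-06), and the abundant Slc35f6 was higher with LPS (0.82 ± 0.14, adjusted p = 5.28e-05). Slc35e2 had 10.3, 11.8 and 10.7 CPM with IFNg against 3.23, 2.02 and 5.21 CPM in the control (1.64 ± 0.39, adjusted p = 0.00197), and Slc35e4 11.2, 8.77 and 8.89 CPM with IFNg against 25.7, 28.1 and 33.5 CPM in the control (-1.59 ± 0.27, adjusted p = 3.54e-05).

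In the small classes, Slc22a4 (chromosome 11, 53983123 to 54028090), the importer of the antioxidant ergothioneine, had 39.8, 42.1 and 22.2 CPM with IFNg+LPS, 99.9, 73.5 and 68.8 CPM with IFNg+TNF and 3.40, 4.15 and 2.64 CPM with IFNg+IL1b. It had 6.76, 6.04 and 7.80 CPM with IFNg+hypoxia, 3.54, 3.18 and 3.28 CPM with IFNg and 4.14, 6.05 and 4.18 CPM in the control. Every IFNg+TNF and IFNg+LPS library lay above 20 CPM and every other library under 8 CPM. It was at 4.59 ± 0.28 with TNF (adjusted p = 2.48e-13), 3.38 ± 0.27 with LPS (adjusted p = 2.85e-10) and 1.04 ± 0.27 with hypoxia (adjusted p = 0.00442). Its neighbour Slc22a5, the carnitine importer 91463 bases away on chromosome 11, was called in none of the 6 comparisons and averaged 9.09 ± 2.52 CPM with IFNg+LPS, 9.57 ± 0.536 CPM with IFNg+TNF and 8.95 ± 2.79 CPM with IFNg. Slc22a18, an organic ion carrier, had 2.33, 0.263 and 0.235 CPM with IFNg+TNF against 7.35, 6.12 and 5.67 CPM with IFNg (-2.70 ± 0.69, adjusted p = 0.00217).

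Of the fatty acid carriers, Slc27a4 had 206, 211 and 223 CPM with IFNg+TNF against 49.05, 55.3 and 51.4 CPM with IFNg (2.04 ± 0.15, adjusted p = 1.31e-11). Slc27a1 had 61.3, 54.4 and 51.8 CPM with IFNg+hypoxia, 103, 82.6 and 100.1 CPM with IFNg and 197, 163 and 219 CPM in the control, and was lower with IFNg against the control (-1.02 ± 0.15, adjusted p = 5.36e-06) and lower again with hypoxia (-0.77 ± 0.15, adjusted p = 0.000322). The high-affinity monocarboxylate carrier Slc16a7 was lower with TNF (-2.74 ± 0.32, adjusted p = 5.48e-08) and hypoxia (-1.001 ± 0.29, adjusted p = 0.0123). It was also called lower with LPS (-0.968). That call was lost without the first or the second IFNg+LPS or the second IFNg library (adjusted p between 0.0557 and 0.0832). The sulfate carrier Slc26a11 had 12.2, 10.1 and 11.4 CPM with IFNg against 66.5, 36.1 and 35.3 CPM in the control (-2.03 ± 0.27, adjusted p = 1.5e-06). The anion exchanger Slc26a6 had 10.2, 5.70 and 8.42 CPM with IFNg+hypoxia against 14.7, 12.01 and 18.3 CPM with IFNg (-0.88 ± 0.28, adjusted p = 0.0206), a call lost without the second IFNg+hypoxia or the third IFNg library (adjusted p = 0.118 and 0.115). The phosphate importer Slc20a1 had 53.4, 44.1 and 56.7 CPM with IFNg and 38.1, 27.7 and 35.8 CPM in the control (0.60 ± 0.17, adjusted p = 0.00781), a call lost without the second control library (adjusted p = 0.0605). The sulfate carrier Slc26a2, the carrier of the monocarboxylate family Slc16a13, and Slc4a1ap, which is named after a carrier, were called in none of the 6 comparisons, at 31.9, 9.13 and 16.3 CPM per kb. Slc9a3r1, named after a sodium-proton exchanger, encodes a scaffold protein and no carrier, and was higher with TNF (0.85 ± 0.15, adjusted p = 2.28e-05). The dicarboxylate carrier Slc13a3 had 8.87, 7.41 and 20.9 CPM with IFNg+IL1b against 0.886, 2.355 and 3.49 CPM with IFNg, the largest fold change with IL1b, and was not called (2.47 ± 0.58, adjusted p = 0.0701).

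Setting LPS against TNF on the IFNg background, 26 of the 55 changed members differed by 2-fold or more. Among those higher with IFNg+LPS, Slc9a9 was at 3.44 ± 0.48 (adjusted p = 2.54e-05), Slc46a3 at 2.77 ± 0.21 (adjusted p = 1.78e-10), Slc16a7 at 1.77 ± 0.31 (adjusted p = 8.6e-05), Slc9a7 at 1.60 ± 0.27 (adjusted p = 4.7e-05) and Slc37a2 at 1.41 ± 0.12 (adjusted p = 2.6e-09). The carriers lower with IFNg+LPS included Slc27a4 at -1.67 ± 0.15 (adjusted p = 2.85e-09), Slc4a11 at -1.46 ± 0.25 (adjusted p = 6.74e-05), Slc2a6 at -1.44 ± 0.15 (adjusted p = 8.03e-08), Slc7a8 at -1.33 ± 0.13 (adjusted p = 1.5e-08) and Slc3a2 at -0.88 ± 0.10 (adjusted p = 2.03e-07). Slc12a7 had 139.5, 159 and 150 CPM with IFNg+LPS against 59.5, 57.1 and 55.7 CPM with IFNg+TNF (1.38 ± 0.12, adjusted p = 3e-09), and Slc44a1 58.9, 77.99 and 57.3 against 131, 136 and 149 CPM (-1.10 ± 0.14, adjusted p = 1.23e-06). Slc6a19 (0.35 ± 0.25, adjusted p = 0.352) and the creatine importer Slc6a8 (-0.09 ± 0.17, adjusted p = 0.759) were not called between the 2 groups. Slc7a4 had 38 counts with IFNg+LPS against 0 with IFNg+TNF, at least 11.7-fold higher with 3 counts as the floor over the group.

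**Figure D5:**
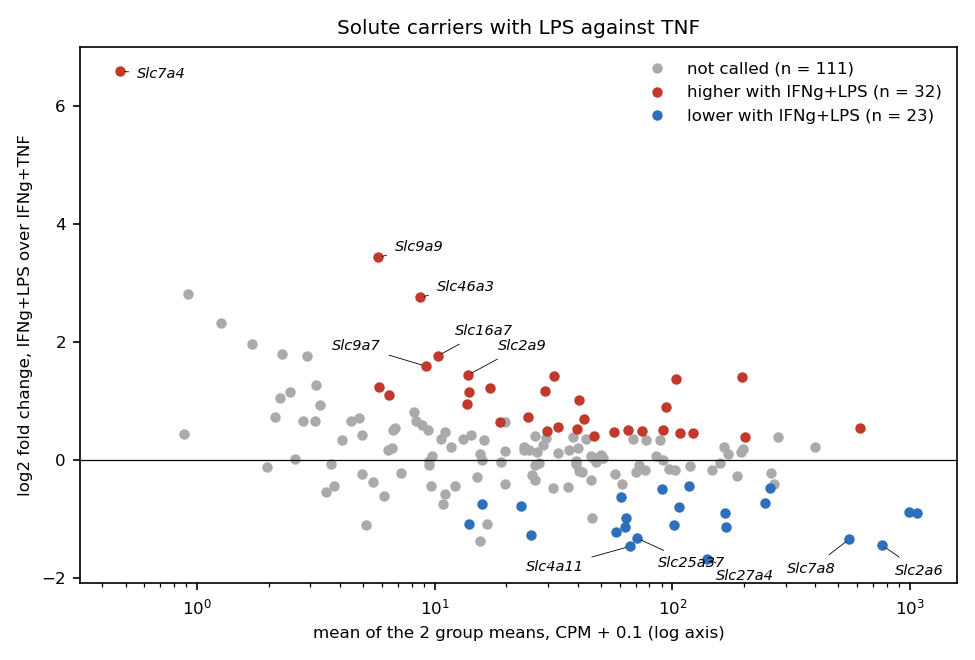
Log2 fold change of IFNg+LPS over IFNg+TNF for the 166 members against the mean of the 2 group means, CPM + 0.1 on a log axis, with 32 called higher (red), 23 called lower (blue) and 111 not called (grey). The fold change drawn for Slc7a4 rests on 0 counts with IFNg+TNF and depends on the prior count of the fit.

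Of the 166 members, the 47 called in none of the 5 comparisons that involve IFNg alone included the lysosomal amino acid carriers Slc36a1, Slc38a7 and Slc38a9 and the vesicular monoamine carrier Slc18a1. The most abundant of these per kilobase were Slc25a45 at 49.9 CPM per kb and Slc35c1 at 40.2. A missing call does not show that a level was the same. Members whose coding exons overlap another gene are less certain, since the use of strand in counting is not given. Slc35a3 shares 28% of its width with Gm43191 on the same strand, and Slc25a46 shares 22.5% with B930094E09Rik and Slc39a13 5.96% with Psmc3 on the opposite strand.

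Carriers whose mouse symbol does not begin with Slc, and genes that partner the carriers or supply their gradients, were read from the same fit. Of 25 tested carriers under other symbols, 3 were higher and 10 lower with TNF, 2 higher and 2 lower with LPS, 5 higher and 4 lower with hypoxia, 0 were called with IL1b, 6 were higher and 2 lower with IFNg against the control, and 9 were higher and 0 lower with IFNg+LPS against IFNg+TNF. In all, 52% were called with TNF beside 44.7% of all genes, 16% with LPS beside 20.3%, 36% with hypoxia beside 25.2%, 32% with IFNg against the control beside 23.6%, and 36% with IFNg+LPS against IFNg+TNF beside 25.3%. Ucp2, a mitochondrial carrier, averaged 796 ± 124 CPM with IFNg+LPS, 485 ± 37.5 CPM with IFNg+TNF and 1506 ± 138 CPM with IFNg, at -0.92 ± 0.14 with LPS (adjusted p = 1.8e-05) and -1.64 ± 0.15 with TNF (adjusted p = 3.89e-10). Ank, which exports pyrophosphate and ATP, averaged 13.2 ± 4.25 CPM with IFNg+LPS, 2.17 ± 0.734 CPM with IFNg+TNF, 37.7 ± 4.43 CPM with IFNg and 125 ± 26.1 CPM in the control, at -4.14 ± 0.26 with TNF (adjusted p = 3.95e-13), -1.51 ± 0.22 with LPS (adjusted p = 6e-06) and -1.73 ± 0.21 with IFNg against the control (adjusted p = 2.73e-07). Of 23 tested partners and pumps, 9 were higher and 4 lower with TNF, 6 higher and 1 lower with LPS, 5 higher and 3 lower with hypoxia, 0 were called with IL1b, 4 were higher and 7 lower with IFNg against the control, and 4 were higher and 4 lower with IFNg+LPS against IFNg+TNF. In all, 56.5% were called with TNF, 30.4% with LPS, 34.8% with hypoxia, 47.8% with IFNg against the control and 34.8% with IFNg+LPS against IFNg+TNF, beside the same shares of all genes. Bsg, the chaperone of monocarboxylate carriers, averaged 701 ± 135 CPM with IFNg+TNF and 254 ± 14.96 CPM with IFNg (1.47 ± 0.16, adjusted p = 2.18e-08).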

How the data were processed

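RNA was measured by sequencing of polyadenylated RNA (stranded kit, single-end reads of 50 bases), per the labels' protocols. Per the submitters' processing notes, GSNAP and the mm10 genome were used. The counter, the annotation and the use of strand are not given in sources used here. The deposited files hold, per gene, a raw count, a gene width in bases and an RPKM value, per the file headers. The counts were tested as deposited, and the RPKM values served only to recover the library totals behind them, 22728833 to 39859629.

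The fit used edgeR 4.0.16 in R 4.3.3 with TMM factors (0.8051 to 1.1865), its default low-count filter, 1 mean per group over all 18 libraries, robust quasi-likelihood tests and Benjamini-Hochberg adjustment over 11563 genes. CPM is the count over the tested genes' library size times the TMM factor. Scripts were tested on simulated data. Alternatives were DESeq2 1.42.0, RLE factors, the RPKM totals, no filter, a block by replicate number, leaving out each library, and members with a summed count of 5000 or more.

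The members and lists were chosen with earlier results of these data known. The rule for named members took the 8 highest and 8 lowest fold changes per comparison among called members with a group mean of 5 CPM or more and no overlap between libraries, the 2 most abundant per kb in each class, those at the count threshold, and Slc3a2 with its partners; the other members named were chosen after their values were seen. Promoters come from RefSeq (GRCm38.p6), which matched 126 of the 166 members, and gene positions from GENCODE M21. Some members are counted in the totals and are not reported here by name.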

Additional observations from a re-analysis of the deposited data

How the results depend on the processing

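Of 293 gene results called in the 6 comparisons, 191 kept their call under every alternative and none changed direction. DESeq2 lost 1, RLE factors 4, testing without the filter 9, the RPKM totals 33 and leaving out at least 1 library 95. By their titles the libraries form 3 numbered sets, each with all 6 groups, and the labels do not say what the number stands for. The main fit therefore took no pairs, and a block by this number was an alternative, so an effect of the set remains possible. Of 45 same-number pairs, 9 had a correlation of deviations over 0.1 (-0.095 to 0.233 over all 45), 8 of these among the libraries numbered 1. The median was 0.035 for equal and -0.0265 for other numbers, and 9 of 18 libraries matched best with their own number. The replicate block lost 3 calls, and gave 54 called members with IFNg against the control, 96 with TNF, 50 with LPS, 47 with hypoxia, 57 with IFNg+LPS against IFNg+TNF and 2 with IL1b.

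With the RPKM totals, lower calls with IFNg against the control became 28 and the member median -0.062; the median with TNF became -0.426; with hypoxia 13 were higher and 41 lower with a median of -0.330; and with IFNg+LPS against IFNg+TNF 53 were higher with a median of 0.384. The TMM factors differed by group, at 0.8051 to 0.859 in the IFNg+TNF libraries and 0.9091 to 0.9152 in the IFNg+hypoxia libraries. They were 1.0323 to 1.0923 in the IFNg libraries and 1.1554 to 1.1865 in the control libraries. The RPKM totals were used without such factors. Why the factors differed by group was not tested. With IL1b, 2 members were called, both higher, without the filter and with the replicate block, and 4 with DESeq2, 3 higher and 1 lower. Leaving out each library gave 0 to 1 members called and 0 to 1 higher with IL1b, with medians of -0.011 to 0.036. With hypoxia it gave 13 to 20 lower and medians of -0.109 to -0.043.

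With 3 libraries a group, carriers with few counts are the least certain, and the SDs and standard errors cover the spread between these libraries.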

Other observations

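Bsg, the chaperone of the monocarboxylate carriers, averaged 1269 ± 143 CPM with IFNg+hypoxia and 254 ± 14.96 CPM with IFNg (SD, n = 3 each), a log2 fold change of 2.32 ± 0.16 (edgeR adjusted p = 5.09e-11). Ucp2 averaged 2040 ± 313 CPM with IFNg+hypoxia against 1506 ± 138 CPM with IFNg, at 0.44 ± 0.14 (edgeR adjusted p = 0.0226). Markers of dendritic cells summed to 10.5 to 14.1 CPM with IFNg+LPS, 32.7 to 48.0 CPM with IFNg+TNF and 5.99 to 8.48 CPM with IFNg, and their part in the results on the carriers was not tested.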
